A study of Homo sapiens with 12 samples.

Results

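Human embryonic stem cells (hESC) of the UCLA1 line in which the catalytic domain of TET1 was knocked out (CDKO) were compared with control cells (CTRL) of the same line by bulk RNA sequencing. The comparison takes all 6 hESC libraries of the 12 in the series, 3 of CTRL and 3 of CDKO, and the other 6 are incipient mesoderm-like cells (iMeLC) made from the same lines. The labels give the lines CTRL1101, CTRL1106, CTRL1109, CDKO1102, CDKO1105 and CDKO1312. In the hESC count table the columns carry a genotype and a number without a line, so the libraries are called CTRL hESC 1 to 3 and CDKO hESC 1 to 3 and are tied to no line. Both genotypes carry the stage label hESC, with no drug or dose in the labels. The sources used here do not state how the catalytic domain was removed or whether each line is 1 clone.

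TET1 is a dioxygenase that oxidises methylated cytosine in CG pairs, which starts the removal of DNA methylation through base excision repair. In pluripotent stem cells it is abundant and sits at CG-rich promoters, many of them also bound by the Polycomb repressive complex, and it carries protein partners such as the SIN3 and HDAC corepressors besides its enzyme activity. A knockout limited to the catalytic domain asks which genes need the enzyme activity in stem cells before their differentiation into iMeLC.

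Values are CPM, a gene's reads after scaling every library to the same depth, given for CTRL hESC 1, 2 and 3 and then CDKO hESC 1, 2 and 3. A gene is said to have risen, fallen or been called where edgeR's quasi-likelihood test gave a Benjamini-Hochberg adjusted p under 0.05, and each log2 fold change is CDKO minus CTRL. The 6 libraries held 12517593 to 18855099 counts, 2.93% to 3.66% of them from mitochondrial genes. All 9 stem cell markers checked were present in every library, with POU5F1 at 1460 to 1830 CPM, NANOG at 146 to 228 CPM and SOX2 at 574 to 736 CPM over the 6 libraries. The summed level of 8 fibroblast or feeder markers was 545, 669 and 425 CPM (CTRL) against 675, 597 and 509 CPM (CDKO). DCN, POSTN and FAP, 3 of the 8, stayed under 1 CPM in every library, and COL3A1 and LUM did not exceed 5.66 CPM. THY1 (248 to 443 CPM), COL1A1 (124 to 206 CPM) and COL1A2 (37.3 to 61.2 CPM) were present in every library. Whether any of this RNA came from feeder cells was not tested. In bulk RNA, fewer cells expressing a gene and less RNA per cell cannot be told apart.

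Promoter sequences are shown first for 4 genes with large changes: ZNF560, NAP1L5 and SEC14L4, which were called lower, and HOXA7, called higher. Each is the run of 250 bases before the start that RefSeq gives the gene, all 4 on the minus strand, read 5′ to 3′ along the gene from the RefSeq table for GRCh38.p14, with every CG pair in capitals because CG pairs are where TET1 acts. ZNF560 lies at chr19:9498617-9498866, NAP1L5 at chr4:88697830-88698079, SEC14L4 at chr22:30505696-30505945 and HOXA7 at chr7:27156676-27156925. The gene spans printed with the results are those of GENCODE, which begins HOXA7 and SEC14L4 further upstream, so the HOXA7 window and the last bases of the SEC14L4 window lie inside them.
ZNF560: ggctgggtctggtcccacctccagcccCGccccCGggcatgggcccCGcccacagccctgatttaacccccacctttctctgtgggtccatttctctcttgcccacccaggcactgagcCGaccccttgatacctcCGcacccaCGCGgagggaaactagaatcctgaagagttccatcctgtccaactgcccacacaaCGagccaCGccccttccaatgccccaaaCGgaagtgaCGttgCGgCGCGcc
NAP1L5: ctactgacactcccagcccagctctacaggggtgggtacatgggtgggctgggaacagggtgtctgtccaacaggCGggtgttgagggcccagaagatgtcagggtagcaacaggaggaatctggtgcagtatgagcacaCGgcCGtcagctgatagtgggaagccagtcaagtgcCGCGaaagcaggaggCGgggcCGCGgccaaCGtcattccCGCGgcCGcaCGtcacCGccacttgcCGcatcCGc
SEC14L4: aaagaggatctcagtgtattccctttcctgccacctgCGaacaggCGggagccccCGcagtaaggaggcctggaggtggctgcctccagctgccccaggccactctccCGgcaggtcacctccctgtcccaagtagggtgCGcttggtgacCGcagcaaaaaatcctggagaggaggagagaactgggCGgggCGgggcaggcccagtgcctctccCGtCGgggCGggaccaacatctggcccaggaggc
HOXA7: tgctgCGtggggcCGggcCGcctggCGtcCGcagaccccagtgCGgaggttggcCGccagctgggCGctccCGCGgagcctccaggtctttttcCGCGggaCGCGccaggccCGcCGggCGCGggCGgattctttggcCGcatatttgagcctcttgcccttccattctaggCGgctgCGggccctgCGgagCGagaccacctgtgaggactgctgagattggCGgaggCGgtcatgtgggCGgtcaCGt
The motif searched was CG, which reads the same on both strands and cannot overlap itself. The ZNF560 window held 14 CG pairs, and 43.2% of the 22114 promoters in the table held at least as many in the same length. NAP1L5 held 16 (39.4% of promoters held as many or more), SEC14L4 11 (48.2%) and HOXA7 28 (14.9%). No methylation was measured in these libraries, so the sequences are a description of where the genes start.

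Before the comparison itself, individual libraries departed from their own genotype. Over all genes in the table, a library was counted as apart in a gene where it differed at least 8-fold (CPM + 0.5) from both others of its genotype and the gene reached 5 CPM in that genotype, a rule chosen after the values were seen. CTRL hESC 2 was above both other CTRL libraries in 8 genes and below them in 9, CDKO hESC 3 was above in 7, and each of the other 4 stood apart in at most 3. In 12 of its genes CTRL hESC 2 lay within 2-fold of each of the 3 CDKO libraries, against 1 gene each for CDKO hESC 1 and CDKO hESC 2 set beside the CTRL libraries and 0 for the other 3.

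The genes in which CTRL hESC 2 lay at the CDKO level included 4 neighbouring zinc finger genes on chromosome 19, GRCh38 positions 22286408 to 23003176. ZNF729 stood at 345.3, 0.0566 and 362 CPM (CTRL) against 0.0817, 0.11 and 0 CPM (CDKO). ZNF99 stood at 165 and 69.1 CPM in CTRL hESC 1 and 3 and between 0.0566 and 0.11 CPM in the other 4 libraries. ZNF98 (49.2 and 41.3 CPM) and ZNF728 (32 and 32.1 CPM) were likewise present in CTRL hESC 1 and 3, and in the other 4 libraries neither exceeded 0.441 CPM. These genes encode KRAB-type zinc finger proteins, a large family of DNA-binding repressors, and they form part of a tandem gene cluster. Only 2 of the 6 libraries were above 1 CPM for these genes, which did not pass the filter on low counts and were not tested. HEPH, a copper-dependent iron oxidase on the X chromosome, followed the same order at 22.2, 0.226 and 25.4 CPM (CTRL) against 0.163, 0 and 0.405 CPM (CDKO).

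In the opposite direction, PCAT7, a non-coding gene, stood at 0, 9.06 and 0.207 CPM (CTRL) against 8.17, 7.27 and 12.4 CPM (CDKO). ZXDA, a zinc finger gene of the X chromosome, stood at 0.246, 8.32 and 0.156 CPM (CTRL) against 10.4, 10.9 and 10.01 CPM (CDKO). SLC5A4-AS1, CCDC144NL-AS1, AC018865.3 and POTEF, a gene with close copies, had the same arrangement, with CTRL hESC 2 at 16.8, 55.4, 25.2 and 36.5 CPM respectively. All 6 were tested and 0 were called; in each the CTRL libraries spread far more widely than the CDKO libraries. Among the iMeLC libraries, CTRL1106 stood with the CDKO libraries for ZNF729 (0.0208 CPM against 136.9 and 114 CPM in CTRL1101 and CTRL1109) and for PCAT7 (5.72 against 0.0312 and 0.124 CPM). What sets CTRL hESC 2 apart was not tested. For some of the genes in which it lay nearest to the CDKO libraries, values are given with and without it. Leaving out the library nearest to the other genotype widens a difference by construction. Such values, for this library or another, are therefore a description and no added support.

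**Figure D1:**
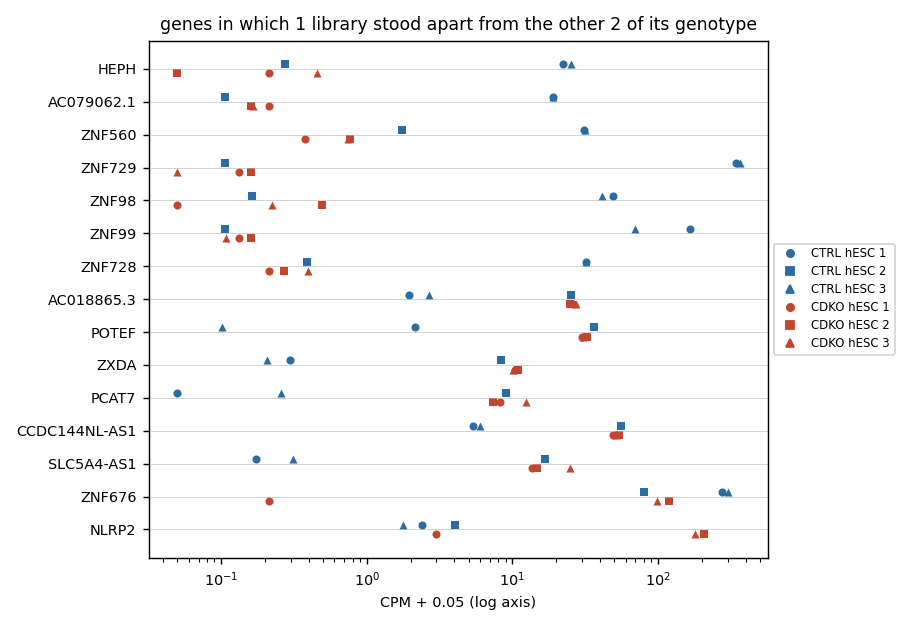
Level of 15 genes in each hESC library, as CPM + 0.05 on a log axis, with CTRL libraries in blue and CDKO libraries in red and a marker shape for each library number. The blue squares of CTRL hESC 2 sit with the red CDKO symbols from HEPH to SLC5A4-AS1 (for ZNF560 slightly above them), while CDKO hESC 1 sits far below the other CDKO libraries in ZNF676 and NLRP2.

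TET1 itself was counted in every library, at 325, 379.9 and 344 CPM (CTRL) against 424, 448 and 378 CPM (CDKO). Its lowest CDKO value lay just below its highest CTRL value, so the groups overlapped, and the difference did not pass (log2 fold change 0.25, SE 0.09, adjusted p = 0.209 by edgeR; exact two-sided permutation p = 0.2, where 3 libraries against 3 can give no less than 0.1). Counts are summed over the gene, so this value does not report on the catalytic exons. TET2 stood at 17.4, 17.7 and 16.7 CPM (CTRL) against 21.9, 20.8 and 20.8 CPM (CDKO), which did not overlap but did not pass either (log2 fold change 0.29, SE 0.10, adjusted p = 0.201 by edgeR). TET3, the third dioxygenase of the family, was at 131, 115 and 113 CPM (CTRL) against 139.6, 129 and 139 CPM (CDKO) (log2 fold change 0.18, SE 0.08, adjusted p = 0.313 by edgeR). Over 21 TET enzymes and base excision partners 0 were called, with a median log2 fold change of 0.02. DNA methylation writers and readers gave 0 calls of 19 (median -0.01), with the de novo methyltransferase DNMT3B at 2825, 3259.9 and 2786 CPM (CTRL) against 3407, 3441 and 2498 CPM (CDKO) and the repressor scaffold TRIM28 at 1761, 1817 and 1587 CPM (CTRL) against 2099, 2090.5 and 1763 CPM (CDKO). SIN3, HDAC and OGT complex genes gave 0 of 16 and Polycomb repressive complex 2 subunits 0 of 13 (median -0.14).

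Of 17222 genes tested, 226 were called (1.31%), 103 higher (0.598%) and 123 lower (0.714%) in CDKO. These shares are the background for every count of called list members given below. At an unadjusted p under 0.05 there were 2777. The 2 genotypes' libraries did not overlap in 225 of the called genes and in 22.1% of all tested genes. Lack of overlap was also a condition for naming genes by rank, so it adds no support where mentioned below. More than 2-fold changes made up 56 of the higher and 64 of the lower genes, and the median size was 1.10 on the log2 scale among the higher and 1.01 among the lower. Over all tested genes the median log2 fold change was -0.002. Calls were most frequent between 1 and 10 CPM (1.59% of genes) and rarest under 1 CPM (0.533%). Above 100 CPM, 22 genes fell and 7 rose, with a median size of 0.47 on the log2 scale. Of the called genes 200 were protein coding, 16 long intergenic non-coding and 5 antisense.

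**Figure D2:**
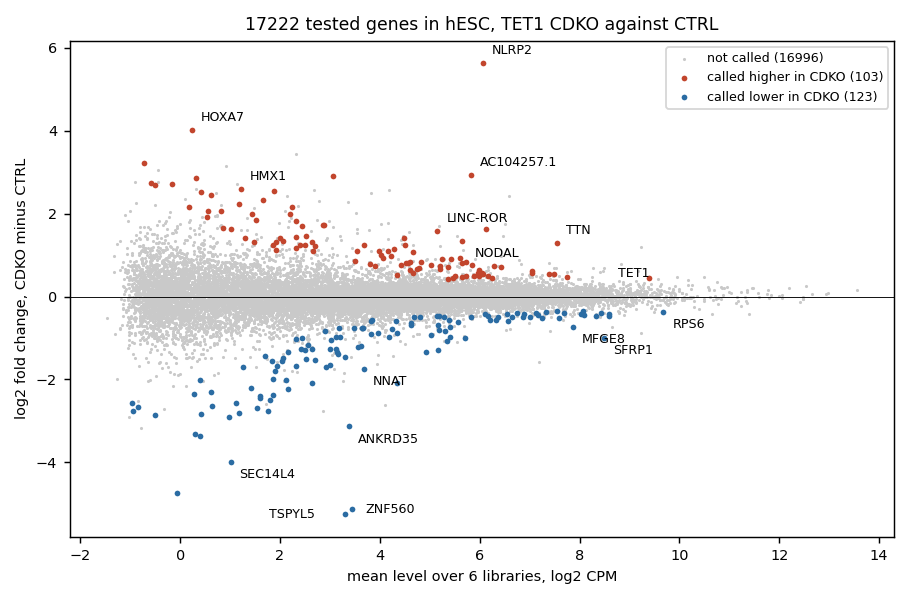
Every tested gene in hESC, with its mean level over the 6 libraries (log2 CPM) against its log2 fold change, CDKO minus CTRL. The 103 genes called higher are red and the 123 called lower are blue; calls above 100 CPM are mostly lower and small, and the largest changes are of genes at low levels.

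How far the calls rest on single libraries is stated here once. The 226 genes kept their direction in all 6 omissions of 1 library, but the number called fell to 5 when CDKO hESC 2 was left out, to 28 and 41 when CDKO hESC 1 or CDKO hESC 3 was, and to 102 when CTRL hESC 1 was. It rose to 493 without CTRL hESC 2 and was 230 without CTRL hESC 3. In every omission 3 genes stayed called, ANKRD35, TSPYL5 and AC104257.1. All other genes named below as risen or fallen lost the call in at least 1 omission, most often that of CDKO hESC 2, which left 3 of the 82 called genes chosen by the naming rule past the threshold. The labels do not say how cultures and libraries were made in parallel, so the p-values reflect the spread between these 6 libraries, and effects of line, culture and preparation cannot be told apart.

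The 3 genes called in every omission differed by a wide margin. TSPYL5 (chromosome 8, 97273474 to 97277964, minus strand), a member of the TSPY-like nucleosome assembly family, stood at 13.97, 25.3 and 18.5 CPM (CTRL) against 0.49, 0.881 and 0.116 CPM (CDKO). Every CDKO library lay far below the lowest CTRL library (log2 fold change -5.24, SE 0.42, adjusted p = 0.00149 by edgeR), and without CDKO hESC 2 the log2 fold change was -6.09. ANKRD35 (chromosome 1, 145866560 to 145885866, minus strand), an ankyrin repeat gene, stood at 15.87, 22.9 and 16.8 CPM (CTRL) against 2.94, 1.93 and 1.62 CPM (CDKO) (log2 fold change -3.13, SE 0.24, adjusted p = 0.00144 by edgeR). The long non-coding gene AC104257.1 (chromosome 8, 131308545 to 131317632, plus strand), named after its values were seen, moved the other way, at 8.24, 15.2 and 15.6 CPM (CTRL) against 103, 100.4 and 95.6 CPM (CDKO). Its 3 CDKO libraries lay within a few CPM of each other and all above the CTRL libraries (log2 fold change 2.93, SE 0.19, adjusted p = 0.000624 by edgeR). All 3 were also called in iMeLC in the same direction, with log2 fold changes there of -7.54 for TSPYL5, -4.17 for ANKRD35 and 2.93 for AC104257.1. The iMeLC came from the same lines, so this is not an independent repeat.

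Transcription factors of development were among the largest rises, and most of them were at low levels in both genotypes. HOXA7 (chromosome 7, 27153716 to 27157936, minus strand), a HOX factor of body axis patterning, stood at 0.123, 0.17 and 0.104 CPM (CTRL) against 1.71, 1.76 and 3.18 CPM (CDKO) (log2 fold change 4.01, SE 0.47, adjusted p = 0.0125 by edgeR). Its groups did not overlap, and CDKO hESC 3 was the highest library. It was 1 of only 3 HOX genes, of 39, that passed the filter, and the single call. All 3 fold changes were positive, with a median of 1.40 and a lowest value of 0.55. The untested HOX genes were at or near background, with none above 1.27 CPM in any library. HMX1 (chromosome 4, 8846076 to 8871817, minus strand), a homeobox factor of eye and cranial development, stood at 0.492, 0.736 and 0.726 CPM (CTRL) against 3.67, 4.24 and 3.99 CPM (CDKO) (log2 fold change 2.59, SE 0.27, adjusted p = 0.00945 by edgeR). OLIG2, the basic helix-loop-helix factor of motor neuron and oligodendrocyte precursors, stood at 0.308, 0.283 and 0.104 CPM (CTRL) against 2.04, 1.16 and 1.45 CPM (CDKO), and its relative OLIG3, a factor of the dorsal neural tube named after its values were seen, at 1.54, 1.53 and 0.674 CPM (CTRL) against 5.8, 4.52 and 3.18 CPM (CDKO). The log2 fold changes were 2.71 for OLIG2 and 1.85 for OLIG3.

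IRX4, a homeobox factor of the heart ventricle, stood at 0.8, 3.28 and 1.04 CPM (CTRL) against 8.49, 7.66 and 6.88 CPM (CDKO), and its log2 fold change of 2.16 was 3.04 without CTRL hESC 2, the highest CTRL library. NKX1-2, a homeobox gene of posterior axial progenitors, was already expressed in CTRL and rose from 49.9, 53.1 and 46.6 CPM to 74.7, 74.2 and 84.3 CPM. GBX2, a homeobox gene of the midbrain and hindbrain boundary, stood at 3.69, 4.87 and 3.11 CPM (CTRL) against 7.68, 9.91 and 9.54 CPM (CDKO) (log2 fold change 1.22). Of 70 homeobox regulators listed outside the HOX clusters, 40 did not pass the filter on low counts. Of the 30 tested 4 were called, all higher (13.3% against 0.598% of all genes called higher). Genes at low levels can pass the filter through a single genotype, which favours genes that differ, so this share is a description only. The list's median was 0.29, from 0.10 without CTRL hESC 3 to 0.56 without CTRL hESC 1. The neuroectoderm list gave 1 call of 13 (OLIG2) and a median of 0.09.

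Signalling genes of the pluripotent state were called singly. NODAL (chromosome 10, 70432315 to 70447951, minus strand), the ligand that holds human stem cells in the primed state and induces mesendoderm, stood at 27.2, 38.3 and 19.8 CPM (CTRL) against 52.02, 67.9 and 94.9 CPM (CDKO). All 3 CDKO libraries were above all 3 CTRL libraries (log2 fold change 1.34, SE 0.25, adjusted p = 0.0374 by edgeR), with CDKO hESC 3 the highest. Without CDKO hESC 3 the log2 fold change was 1.08 and the adjusted p by edgeR 0.112. Of 22 NODAL and activin pathway genes NODAL was the single call, the median being 0.37. SPRY2, the feedback inhibitor of FGF and ERK signalling, rose from 48.7, 51.3 and 48.2 CPM to 71.05, 70.99 and 65.6 CPM, a small and even change (log2 fold change 0.49), as the single call of 23 FGF pathway genes. LINC-ROR, a long non-coding RNA of pluripotent cells, stood at 14.4, 25.3 and 13.5 CPM (CTRL) against 53.3, 49.6 and 57.2 CPM (CDKO) (log2 fold change 1.59), again without overlap. It was the single call of 21 core pluripotency genes, whose median was 0.15. Without CTRL hESC 2, the highest CTRL library, the log2 fold change of LINC-ROR was 1.94.

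SFRP1, a secreted WNT antagonist and one of the more abundant called genes, fell from 546, 340.0 and 555 CPM to 235, 188 and 297 CPM. The lowest CTRL library, CTRL hESC 2, lay close to the highest CDKO library (log2 fold change -1.0, and -1.2 without CTRL hESC 2). The 18 WNT target genes gave 0 calls and a median of 0.17, and the 19 BMP genes 0 calls. LFNG, which modifies Notch receptors and was named after its values were seen, fell from 28.6, 31.3 and 31.4 CPM to 20.4, 17.4 and 18.6 CPM.

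Definitive endoderm and primitive streak genes were highest in CDKO hESC 3. CER1, a secreted NODAL and BMP antagonist of anterior endoderm, stood at 61.6, 13.2 and 17.3 CPM (CTRL) against 35.03, 49.4 and 404 CPM (CDKO) and was not called (log2 fold change 2.42, SE 0.89, adjusted p = 0.223 by edgeR). SOX17, the endoderm transcription factor, was at 61.9 CPM in CDKO hESC 3 and at 1.36 to 9.54 CPM in the other 5 libraries. The 5 endoderm markers summed to 23.8, 6.39 and 8.35 CPM (CTRL) against 12.4, 16.5 and 163 CPM (CDKO), and the 4 primitive streak markers to 29.1, 7.30 and 6.33 CPM (CTRL) against 13.6, 24.9 and 113 CPM (CDKO). The definitive endoderm list gave 0 calls of 15, and its median of 1.83 was 0.06 without CDKO hESC 3. For the primitive streak and mesendoderm list the median was 1.35, with values from 0.62 without CDKO hESC 3 to 2.52 without CTRL hESC 1. In that list 2 of 15 members were called higher, NODAL and NKX1-2 (0.598% of all genes were called higher). Whether these levels bear on the NODAL value was not tested.

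**Figure D3:**
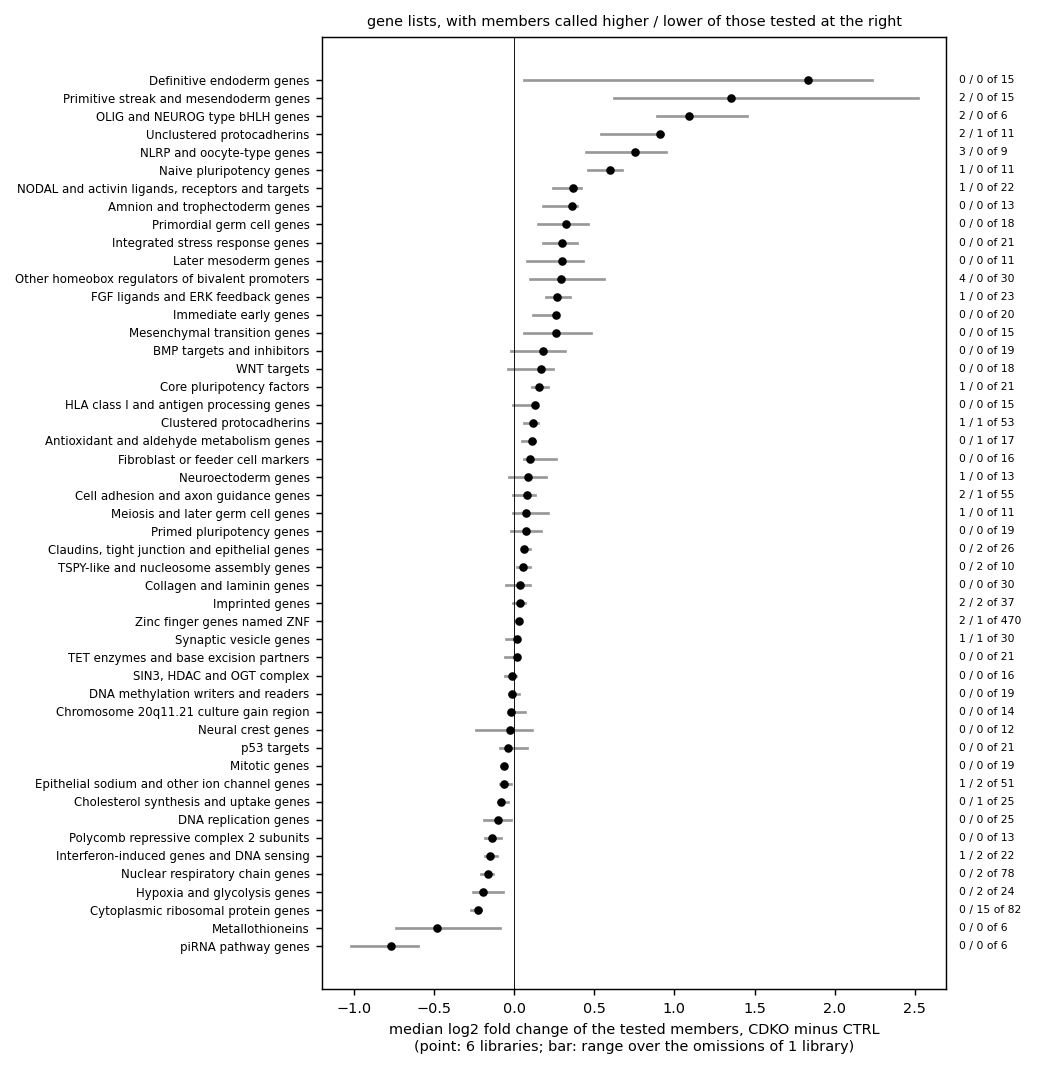
Median log2 fold change (CDKO minus CTRL) of the tested members of each gene list with at least 6 tested, as points, with grey bars for the range over the 6 omissions of 1 library and the members called higher and lower at the right. Endoderm and primitive streak lists have the highest medians and the widest bars, the endoderm median reaching 0.06 without CDKO hESC 3, and the ribosomal protein list has the most calls, 15 lower of 82.

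In a list that joins NOD-like receptor genes named NLRP with oocyte-type genes, NLRP7, NLRP10 and NLRP2 rose. NLRP7, linked in humans to the maternal setting of imprints, stood at 3.2, 3.74 and 3.21 CPM (CTRL) against 6.53, 10.6 and 6.83 CPM (CDKO) (log2 fold change 1.25). NLRP10 stood at 0.923, 1.7 and 0.622 CPM (CTRL) against 7.27, 6.5 and 5.21 CPM (CDKO) (log2 fold change 2.54). NLRP2 (chromosome 19, 54953130 to 55001142, plus strand), neighbour of NLRP7 on chromosome 19, stood at 2.34, 3.96 and 1.71 CPM (CTRL) against 2.94, 208 and 180.0 CPM (CDKO), so that CDKO hESC 1 lay among the CTRL libraries while the other 2 were far above. It was the 1 called gene whose libraries overlapped (log2 fold change 5.62, SE 1.14, adjusted p = 0.0496 by edgeR, and log2 fold change 6.18 without CDKO hESC 1). In iMeLC the arrangement was the same, with CDKO1102 at 1.62 CPM and CDKO1105 and CDKO1312 at 122 and 137 CPM. The list gave 3 calls of 9 tested, all higher (0.598% of all genes were called higher), with fold changes down to -1.61 and a median of 0.75, from 0.45 to 0.95 over the omissions. ZNF676, a zinc finger gene of chromosome 19, split the CDKO libraries too, at 273, 79.9 and 299.9 CPM (CTRL) against 0.163, 118 and 98.05 CPM (CDKO), and was not called.

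Imprinted genes, which are expressed from 1 parental allele, went both ways. NAP1L5 (chromosome 4, 88695915 to 88697829, minus strand), a retrogene expressed from the paternal allele, stood at 5.48, 4.07 and 5.86 CPM (CTRL) against 0.327, 1.32 and 1.16 CPM (CDKO) (log2 fold change -2.39, SE 0.37, adjusted p = 0.0193 by edgeR). NNAT, a paternally expressed membrane proteolipid gene inside BLCAP, stood at 19.1, 21.3 and 18.5 CPM (CTRL) against 8.74, 5.34 and 3.7 CPM (CDKO) (log2 fold change -1.75, SE 0.25, adjusted p = 0.016 by edgeR). Both fell without overlap, and both were also lower in iMeLC, at log2 fold changes of -6.89 for NAP1L5 and -4.65 for NNAT. A difference between the stages did not pass the interaction test, with adjusted p by edgeR over 12 libraries of 0.102 and 0.0977. GRB10, an adaptor of growth factor receptors, rose from 121, 108 and 90.99 CPM to 163, 154 and 155 CPM. With NLRP2, 2 of 37 imprinted genes were called higher and 2 lower (5.41% each, against 0.598% higher and 0.714% lower over all genes), and the median was 0.03. H19, the maternally expressed non-coding RNA, was not tested, with 11.1 CPM in CTRL hESC 1 and at most 0.771 CPM elsewhere.

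Among the zinc finger genes named ZNF, 3 of 470 tested were called, against 1.31% of all genes. ZNF560 (chromosome 19, 9466507 to 9498607, minus strand) stood at 30.9, 1.7 and 31.3 CPM (CTRL) against 0.327, 0.716 and 0.694 CPM (CDKO), so that CTRL hESC 2 lay close to the CDKO libraries. The log2 fold change of ZNF560 was -5.13 (SE 0.97, adjusted p = 0.0383 by edgeR), and -5.67 without CTRL hESC 2. Its call was lost without CTRL hESC 1 (adjusted p = 0.0776 by edgeR) and without each CDKO library (adjusted p = 0.141 to 0.192 by edgeR). ZNF878 rose from 19.1, 19.2 and 19.1 CPM to 27.6, 32.2 and 29.1 CPM and ZNF486 from 41.3, 51.8 and 35.7 CPM to 71.5, 71.9 and 73.8 CPM, with log2 fold changes of 0.63 and 0.75. ZFP3, a zinc finger gene outside that list, stood at 3.57, 7.07 and 7.21 CPM (CTRL) against 0.653, 1.93 and 0.463 CPM (CDKO); its log2 fold change of -2.50 was -3.43 without CDKO hESC 2, the highest CDKO library.

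The other large falls were of genes with low counts. SEC14L4 (chromosome 22, 30488913 to 30505711, minus strand), of the SEC14-like lipid-binding family, stood at 2.95, 4.41 and 3.99 CPM (CTRL) against 0.327, 0.275 and 0.116 CPM (CDKO) (log2 fold change -3.99, SE 0.38, adjusted p = 0.00572 by edgeR). MIR1-1HG-AS1, an antisense RNA of chromosome 20, had 98 counts over the CTRL libraries and 3 over the CDKO libraries, a CTRL over CDKO ratio of 29.3 (exact 95% interval 9.73 to 144, counting error only). FRMD1, a FERM domain gene, stood at 1.35, 1.87 and 3.37 CPM (CTRL) against 0.572, 0.11 and 0.0578 CPM (CDKO), with a log2 fold change of -3.31 that was -4.60 without CDKO hESC 1. CDC42EP5, an effector of the small GTPase CDC42, stood at 1.66, 2.15 and 3.27 CPM (CTRL) against 0.0817, 0.441 and 0.405 CPM (CDKO) (log2 fold change -2.82). TTC22 (-2.65), CCDC125 (-2.81), PHYHIP (-2.75) and LINC01162 (-2.85) fell as well. None of the 4 exceeded 1.6 CPM in CDKO. In an omission 2 of these changes grew by more than 1.5-fold, TTC22 to -3.28 without CDKO hESC 3 and PHYHIP to -3.68 without CDKO hESC 2.

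Antiviral and innate immune genes split. MX2, an interferon-induced GTPase, stood at 3.2, 4.41 and 3.58 CPM (CTRL) against 0.245, 0.275 and 1.27 CPM (CDKO), with CDKO hESC 3 above the other CDKO libraries (log2 fold change -2.58, or -3.79 without CDKO hESC 3). OAS3, an interferon-induced sensor of double-stranded RNA, fell from 6.77, 5.49 and 6.84 CPM to 2.78, 2.97 and 1.79 CPM. IFIT3, an interferon-induced protein of the tetratricopeptide family, rose from 0.615, 0.679 and 0.518 CPM to 2.12, 2.31 and 2.43 CPM. The list gave 1 call higher and 2 lower of 22 (median -0.15), against 0.598% higher and 0.714% lower over all genes. APOBEC3B, a cytidine deaminase named after its values were seen, fell from 11.3, 7.47 and 7.67 CPM to 3.27, 3.97 and 3.7 CPM. HLA class I and antigen processing genes gave 0 calls of 15.

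Epithelial genes that were called fell. PKP3, a plakophilin of desmosomes, stood at 11.7, 14.998 and 11.198 CPM (CTRL) against 5.23, 4.41 and 5.44 CPM (CDKO) (log2 fold change -1.33, SE 0.17, adjusted p = 0.0146 by edgeR), and CLDN4, a claudin of tight junctions, at 8.49, 8.49 and 7.26 CPM (CTRL) against 3.76, 2.64 and 3.53 CPM (CDKO) (log2 fold change -1.29). Neither overlapped. They were the 2 calls of 26 tight junction and epithelial genes (0.714% of all genes were called lower). The list's median was 0.06, and 17 of its fold changes were positive and 9 negative, so the list as a whole did not fall. MFGE8, the abundant secreted glycoprotein lactadherin, fell from 277, 287 and 313 CPM to 177, 166 and 185 CPM (log2 fold change -0.73). SELENBP1, a selenium-binding methanethiol oxidase, fell from 12.2, 11.1 and 13.3 CPM to 4.33, 5.4 and 5.5 CPM. GSTM1, a glutathione transferase with close copies, fell from 3.999, 3.11 and 3.89 CPM to 1.06, 1.32 and 0.983 CPM. Collagen and laminin genes of the list gave 0 calls of 30; COL7A1, the anchoring fibril collagen, and LAMC3, a laminin chain, are outside that list, were named after their values were seen, and fell at log2 fold changes of -1.30 and -0.76.

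Genes of the nervous system appeared on both sides. Higher were the synaptic adhesion gene SLITRK1, at 0.615, 0.679 and 0.415 CPM (CTRL) against 2.2, 2.48 and 2.43 CPM (CDKO), and the Nogo receptor relative RTN4RL1, at 0.492, 0.17 and 0.518 CPM (CTRL) against 1.8, 1.76 and 3.3 CPM (CDKO). The neurofilament gene INA rose from 33.8, 40.1 and 35.98 CPM to 69.99, 62.8 and 58.3 CPM and the calcium buffer CALB1 from 7.44, 8.04 and 6.84 CPM to 14.3, 17.02 and 16.02 CPM. C1QL4, a secreted C1q-like synaptic protein, stood at 0.431, 0.226 and 0.259 CPM (CTRL) against 1.63, 2.53 and 2.43 CPM (CDKO). B4GALNT1, which makes complex gangliosides, stood at 1.91, 1.47 and 2.13 CPM (CTRL) against 8.49, 6.72 and 6.65 CPM (CDKO) and was called in iMeLC as well (log2 fold changes 1.98 and 1.81). SYT2, a calcium sensor of vesicle release, rose from 25.2, 36.1 and 28.5 CPM to 61.004, 57.6 and 49.2 CPM. Lower were the axonal adhesion gene CNTN2, at 3.32, 4.3 and 2.8 CPM (CTRL) against 0.408, 0.275 and 0.694 CPM (CDKO), and the synaptotagmin SYT5, at 1.66, 5.04 and 8.29 CPM (CTRL) against 0.817, 0.551 and 0.983 CPM (CDKO). The NMDA receptor subunit GRIN1 fell from 5.6, 6.85 and 10.3 CPM to 2.29, 1.76 and 3.12 CPM and the calcium channel gene CACNA1A from 35.1, 38.9 and 54.7 CPM to 25.2, 18.8 and 23.5 CPM. In lists, 2 were called higher and 1 lower of 55 adhesion and guidance genes (median 0.08), 1 and 1 of 30 synaptic vesicle genes (median 0.02), and 1 and 2 of 51 ion channel genes (median -0.07). The shares over all genes were 0.598% higher and 0.714% lower.

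The single ion channel gene that rose was SCNN1B, a subunit of the epithelial sodium channel, at 0.369, 0.906 and 0.156 CPM (CTRL) against 2.37, 2.64 and 2.78 CPM (CDKO), with a log2 fold change of 2.44 that was 3.31 without CTRL hESC 2. CXCR2, a chemokine receptor, stood at 0.123, 0.283 and 0.104 CPM (CTRL) against 0.98, 0.991 and 1.5 CPM (CDKO), and DUOXA1, the maturation factor of the oxidase DUOX1, at 0.185, 0.0566 and 0.311 CPM (CTRL) against 1.14, 0.936 and 1.62 CPM (CDKO); DUOXA1 overlaps DUOX1 and its log2 fold change of 2.68 was 3.30 without CTRL hESC 3. AADACL3, of the arylacetamide deacetylase family, stood at 0.615, 1.92 and 0.57 CPM (CTRL) against 6.86, 5.07 and 3.82 CPM (CDKO), at 2.32 and at 3.12 without CTRL hESC 2. For SCNN1B and AADACL3, CTRL hESC 2 was the CTRL library nearest to CDKO.

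Protocadherins, cell adhesion proteins encoded in clusters and as single genes, were called in both arrangements. PCDH19 stood at 11.6, 13.4 and 11.8 CPM (CTRL) against 42.4, 32.5 and 22.6 CPM (CDKO) and PCDH17 at 3.08, 2.49 and 2.54 CPM (CTRL) against 9.88, 6.88 and 5.26 CPM (CDKO), with log2 fold changes of 1.40 and 1.43, and PCDH11X fell from 25.4, 19.9 and 26.6 CPM to 13.1, 14.7 and 13.8 CPM. These 3 calls of 11 unclustered members came with a median of 0.91, from 0.54 to 0.93 over the omissions, in a list drawn up after the values were seen. Over all genes 1.31% were called in either direction. Of 53 clustered protocadherins PCDHGC4 rose from 4.06, 3.45 and 2.59 CPM to 9.55, 9.69 and 13.9 CPM and PCDHGA11 fell from 17.7, 20.6 and 16.8 CPM to 11.1, 7.66 and 10.8 CPM. Both share exons with the rest of the gamma cluster, so their counts are uncertain. FAT4, a giant atypical cadherin, rose from 72.1, 59.3 and 63.1 CPM to 108, 107 and 105 CPM.

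The giant muscle gene TTN (chromosome 2, 178525989 to 178830802, minus strand), which encodes titin, was the called gene of highest level past a 2-fold rise, at 101, 134 and 89.3 CPM (CTRL) against 264, 228 and 305 CPM (CDKO). The groups did not overlap (log2 fold change 1.30, SE 0.15, adjusted p = 0.0125 by edgeR), and the neighbouring gene CCDC141 rose alongside at 11.197, 18.3 and 10.9 CPM (CTRL) against 35.1, 28.1 and 31.9 CPM (CDKO) (log2 fold change 1.23). TRDN, encoding triadin of the muscle calcium store, stood at 8.06, 16.2 and 11.9 CPM (CTRL) against 26.4, 25.9 and 28.3 CPM (CDKO) and was called in iMeLC too, with log2 fold changes of 1.15 and 2.47. TTN overlaps antisense genes, TTN-AS1 among them, and CCDC141. CCDC141 and TRDN were named after their values were seen.

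Several abundant genes rose by a small amount. RESF1, a chromatin silencing factor of retroelements, rose from 561, 589.8 and 557 CPM to 837, 763 and 709 CPM. GNPTAB, which builds the mannose tag of lysosomal enzymes, rose from 184, 187 and 167 CPM to 266, 245 and 234 CPM, LITAF, of the lysosomal membrane, from 138, 155 and 149 CPM to 223, 219 and 198 CPM, and INPPL1, an inositol phosphatase, from 147, 134 and 129 CPM to 194, 198 and 208 CPM. Their log2 fold changes lay between 0.43 (RESF1) and 0.55 (INPPL1), and no library of one genotype reached the other's range.

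Among the more abundant genes, those of the cytoplasmic ribosome had the most calls of any list, in a list drawn up after the values were seen. Of 82 ribosomal protein genes tested 15 fell (18.3%, against 0.714% of all genes called lower) and 0 rose, and 76 of the 82 fold changes were negative, with a median of -0.22, between -0.27 and -0.21 over the omissions. RPS6, of the small subunit, fell from 955, 946 and 877 CPM to 727, 713 and 706 CPM (log2 fold change -0.37, SE 0.07, adjusted p = 0.0383 by edgeR). RPL12, of the large subunit, fell from 439.6, 463 and 436 CPM to 289, 332 and 344 CPM (log2 fold change -0.47). Summed over the list, these genes took 3.402%, 3.387% and 3.251% of the CTRL counts and 2.947%, 2.864% and 2.804% of the CDKO counts, without overlap. The lowest log2 fold change in the list was -0.60. In iMeLC the log2 fold changes were 0.04 for RPS6 and -0.09 for RPL12, neither of them called there.

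Nuclear genes of the respiratory chain gave 2 calls, both lower, of 78 in a list also drawn up after the values were seen, with a median of -0.16. COX7C, a subunit of cytochrome oxidase, fell from 111, 121 and 110.2 CPM to 66.2, 82.2 and 76.8 CPM, and NDUFS5, of complex I, from 79.7, 90.8 and 81.3 CPM to 57.3, 62.6 and 60.3 CPM. Over all genes at 10 CPM or more, the median log2 fold change was -0.015 for those with a longest transcript under 1 kb and -0.001 for those over 8 kb. Calls in that set were 1 higher and 5 lower of 241 genes under 1 kb. From 1 to 2 kb they were 5 and 11 of 1046, and from 2 to 4 kb 21 and 30 of 3566. From 4 to 8 kb they were 27 and 14 of 3878, and above 8 kb 6 and 5 of 1071. Over all tested genes 0.598% were called higher and 0.714% lower. Many ribosomal protein genes have processed pseudogenes, so part of their reads could have been assigned elsewhere.

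**Figure D4:**
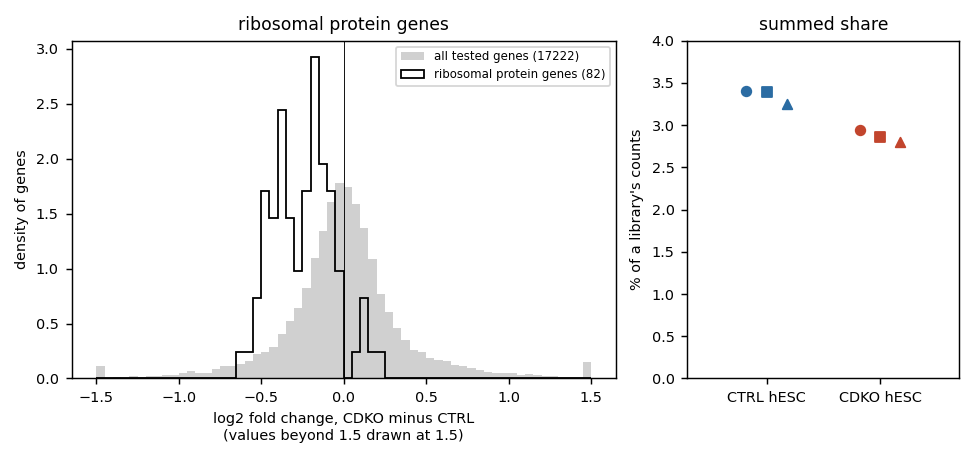
Left, distribution of log2 fold changes (CDKO minus CTRL) of 82 ribosomal protein genes, as a black outline, over all 17222 tested genes, in grey. Right, percent of each library's counts from ribosomal protein genes, where the 3 CDKO libraries (2.804% to 2.947%) lie below the 3 CTRL libraries (3.251% to 3.402%).

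Metabolic and stress genes changed singly. ADM, a vasodilator peptide induced by low oxygen, fell from 80.7, 56.99 and 71.6 CPM to 41.2, 33.5 and 29.8 CPM (log2 fold change -1.01), and BNIP3L, a mitophagy receptor also induced by low oxygen, from 44.1, 42.96 and 49.9 CPM to 32.99, 31.5 and 32.3 CPM. They were the 2 calls of 24 hypoxia and glycolysis genes (0.714% of all genes were called lower). Of the 24 fold changes 19 were negative, as were 8666 of the 17222 over all genes, and the median of -0.19 was -0.07 without CTRL hESC 2. FDFT1, squalene synthase, fell from 106, 106 and 109.6 CPM to 71.9, 87.6 and 79.7 CPM, 1 of 25 cholesterol genes. TXNIP, an inhibitor of thioredoxin named after its values were seen, fell from 26.7, 44.8 and 58.7 CPM to 14.9, 15.6 and 20.6 CPM. Integrated stress response genes gave 0 calls of 21 and a median of 0.30, with the amino acid transporter SLC7A5 at 462, 488 and 146 CPM (CTRL) against 851, 784 and 859 CPM (CDKO), so that CTRL hESC 3 was far below the other 5 libraries. Mitotic genes (0 of 19), DNA replication genes (0 of 25) and p53 targets (0 of 21) gave no call.

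Meiotic and piRNA genes were mostly too low to be tested. RNF212, a meiotic crossover factor, stood at 1.6, 2.32 and 2.64 CPM (CTRL) against 6.61, 9.14 and 7.64 CPM (CDKO) (log2 fold change 1.83), the single call of 11 meiosis and later germ cell genes tested. Primordial germ cell genes gave 0 calls of 18 and piRNA pathway genes, which silence transposons in the germ line, 0 of 6 tested, with a median of -0.77. None of the 26 cancer-testis genes of the X chromosome passed the filter on low counts, the highest value of any of them in any library being 6.96 CPM.

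**Figure D5:**
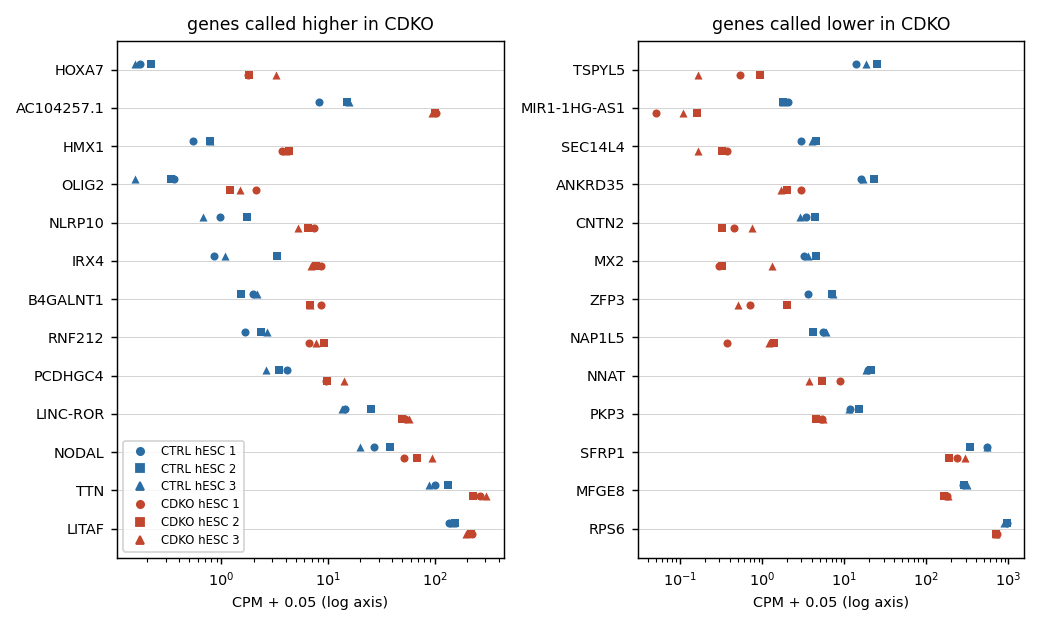
Level of 26 called genes in each hESC library, as CPM + 0.05 on a log axis, with CTRL in blue, CDKO in red and a marker shape for each library number. In each of the genes drawn the 3 CDKO libraries lie on one side of the 3 CTRL libraries, by wide gaps for HOXA7, AC104257.1 and TSPYL5 and by narrow ones for LITAF and RPS6.

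Called genes lay next to each other in places. Within 1 Mb of another called gene there were 65 of them, in 28 groups, and in 20 groups all members went the same way. Some spans were dense in genes, such as 1 on chromosome 11 with 5 called of 86 tested. How often equally many genes drawn from all those tested would lie this close was not worked out. The counts are therefore a description and do not show clustering. On chromosome 21 LINC02575 (log2 fold change -2.22), TSPEAR-AS1 (-2.09) and TSPEAR-AS2 (-1.55) fell together, LINC02575 from 6.95, 8.04 and 7.21 CPM to 0.98, 2.26 and 1.39 CPM. On chromosome 12 the protease gene C1RL (-1.39) and its antisense gene C1RL-AS1 (-2.0) fell. On chromosome 17 RTN4RL1 (2.52) and the repressor gene HIC1 (1.12) rose, and on chromosome X CDR1 (1.33) and the overlapping LINC00632 (0.48). On chromosome 19, by contrast, NLRP2 and NLRP7 rose within 1 Mb of CDC42EP5, SYT5 and RPL28, which fell. In these examples TSPEAR-AS1, TSPEAR-AS2, C1RL, C1RL-AS1, HIC1, CDR1 and LINC00632 were named after their values were seen. By chromosome, against 0.714% lower and 0.598% higher over all genes, the highest shares of genes called lower were on chromosomes 21 (5 of 177, 2.82%), 9 (12 of 652, 1.84%) and 19 (19 genes, 1.52%), and on chromosome 10 0 of 621 fell and 7 rose (1.13%). TSPEAR-AS1 and TSPEAR-AS2 overlap TSPEAR on the opposite strand, as C1RL does C1RL-AS1. Further opposite-strand pairs are CDR1 with LINC00632, HOXA7 with HOXA-AS3, NNAT with BLCAP, NODAL with AC022532.1 and GRIN1 with LRRC26, and since the sources used here do not state whether counting used strand, their reads cannot be assigned with certainty.

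The iMeLC libraries hold the same genotypes and lines at the first step of differentiation, so a call at both stages is not an independent repeat. Of the 226 genes called in hESC, 223 were tested in iMeLC and 28 were called there, all in the same direction, which is 12.4% of the hESC calls and 40.6% of the 69 iMeLC calls. The interaction test over all 12 libraries, which asks whether CDKO and CTRL differed by another amount in iMeLC than in hESC, called 4 of 20262 genes: MTRNR2L12, TRIM4, ABCA1 and PKP3. Among genes called in hESC only PKP3 was in that set, with log2 fold changes of -1.33 in hESC and -3.12 in iMeLC, and its interaction call was lost in 5 of the 6 omissions of an hESC library. For the other hESC calls a difference between the stages was not shown. SFRP1, which fell in hESC (-1.0), was not called in iMeLC, where its log2 fold change was 0.86 (adjusted p = 0.219 by edgeR), and the interaction did not pass either (adjusted p = 0.208 by edgeR).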

How the data were processed

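Per the labels' protocols, RNA came from the RNeasy micro kit and the libraries from the Takara SMARTer Stranded kit for total RNA. The deposited values are raw counts of reads for each gene symbol, as whole numbers, in a table of the 6 hESC libraries. FastQC, cutadapt, edgeR and the GRCh38 build are named, per the submitters' processing notes; which aligner, counter and annotation were used, and whether strand was, is not stated in the sources used here. Counts near a shared or opposite exon, or of genes with near-identical copies, are therefore uncertain.

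Counts were fitted within the hESC table with edgeR 4.0.16 in R 4.3.3 (filterByExpr, TMM, glmQLFit and glmQLFTest, two-sided, Benjamini-Hochberg over all 17222 genes tested, threshold 0.05). The 12-library interaction used 4 group means and treats libraries of the same line as independent. The common biological coefficient of variation was 0.137. Replicate libraries differed by a chi-square of 4.04 to 17.7 per gene, where sampling noise gives about 1, so none was treated as a repeat of another. Of 36762 symbols 34247 (93.2%) matched exactly 1 gene of GENCODE release 29, which gave positions, gene types and overlaps. DESeq2 1.42.0, limma 3.58.1 (voom), other scalings and filters, a replicate block and the omission of each library were tried as alternatives. The fit was tested on simulated data.

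Named genes are TET1 to TET3 and, among called genes of at least 1 CPM in 1 group without overlap and without a clone-based symbol, the 15 largest changes, the 10 smallest adjusted p and the 10 highest levels in each direction, with every called member of the gene lists and up to 2 of the most abundant members of a list without a call; some genes chosen by this rule are not reported here. The members and the lists were chosen with earlier results of these data known, 4 lists and the genes so described were chosen after the values were seen, and lists are described by counts and medians with no set test. Only 49% of the tested genes had an entry in the promoter table, so a comparison of CG content between gene groups is void and none is given.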

Additional observations from a re-analysis of the deposited data

Results flagged for a closer look

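PKP3, the plakophilin gene, was picked out because its genotype difference differed between the stages. The interaction, iMeLC minus hESC, was -1.75 on the log2 scale (SE 0.24, adjusted p = 0.0381 by edgeR over 12 libraries), with PKP3 lower in CDKO at both stages and in 3 of 3 libraries each time. The direction was kept in each omission of 1 hESC library (-1.89 to -1.67), but the call held only without CTRL hESC 2 (adjusted p = 0.0277 by edgeR) and was lost in the other 5 omissions, with adjusted p by edgeR of 0.0764 to 0.162. Stage coincides with the count table and its depth, and these cannot be told apart.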

How the results depend on the processing

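The numbers of genes called moved with the test, the filter and single libraries. All 226 kept their direction in each alternative that gave a value. For the 225 without overlap of libraries, leaving out 1 library could not have reversed it. Counts are given as called, higher and lower. With no filter on low counts they were 1228, 579 and 649, with the DESeq2 test 632, 302 and 330, and with all 12 libraries in 1 fit 72, 23 and 49 (68.1% lower against 54.4%). The limma-voom test called 209 (48.8% lower), upper quartile scaling 242, DESeq2 size factors 227 and the stricter filter 212. Omitting 1 library gave 5 to 493 genes called, 1 to 278 higher and 4 to 215 lower, with 43.6% lower without CTRL hESC 2 and 41.5% without CDKO hESC 3. The interaction called 29 genes with no filter and 192 with DESeq2, and 1 to 4 over the omissions. With the replicate block, which sets library 1 beside library 1 and so on, 594 were called, 295 higher and 299 lower, and 224 of the 226 stayed called. Deviations of same-numbered libraries correlated at -0.008, 0.139 and 0.299, so the numbers were not taken to pair the libraries, and not every library correlated best with its own number. TET1 stayed uncalled throughout (log2 fold change 0.20 to 0.32). Of 82 named called genes 0 reversed, which the omissions could have changed only for NLRP2. The cause of these changes was not tested. Low counts limit the genes under 1 CPM, where few reads decide a value.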
